A study of Rattus norvegicus with 9 samples.

Results

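The genes described here encode proteins of the synaptic vesicle: the membrane proteins Syp, Syngr1, Synpr, Sv2a and Sv2b, the surface-bound synapsins Syn1 and Syn2, the vesicle GTPase Rab3a, and Slc17a7 and Slc17a6, which load glutamate into the vesicle. They are listed by gene name and make up 10 of the 34463 genes of the table. The table lists 9 of them under these names. Sv2b was found by its NCBI gene number, since its row (ENSRNOG00000011160) carries the name AC126641.1, the biotype processed transcript and the description of synaptic vesicle glycoprotein 2b. RNA came from the medial prefrontal cortex (mPFC) of male Sprague-Dawley (SD) rats in 3 groups of 3 libraries. The Veh group received vehicle alone. Rats of the Veh + CMS group received vehicle and were exposed to chronic mild stress (CMS), a randomized schedule of mild stressors lasting 3 weeks. The PHL + CMS group received phloretin (PHL), a dihydrochalcone of apples, and the same stress. For its in vivo experiments the study chose 20 mg/kg of PHL and 2 weeks of pre-treatment, and the sample labels themselves give no dose or time. No group received PHL without stress, and the labels do not say whether the libraries of a group came from separate rats, so the tests rest on the variation among these libraries, and some of that variation may be technical.

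A synaptic vesicle fills with transmitter, is held near the release site, fuses with the presynaptic membrane and is then retrieved. A proton pump acidifies its lumen, and the vesicular glutamate transporters use the resulting gradient to take up glutamate. Slc17a7 (VGLUT1) serves most excitatory neurons of the cortex, whereas Slc17a6 (VGLUT2) prevails in the thalamus and other subcortical regions. Synapsins tether vesicles in a reserve pool, Rab3a marks vesicles ready for release, Sv2a and Sv2b are glycoproteins that support release, and synaptophysin (Syp), synaptogyrin 1 (Syngr1) and synaptoporin (Synpr) are related membrane-spanning proteins. The mRNA of these genes is made in the cell body, so cortical tissue reports on neurons whose somata lie in it. Because this is bulk tissue, fewer cells of a type and less RNA per cell cannot be told apart.

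To show the DNA that these genes have in common, the 250 bases before the start site were taken from RefSeq (build GRCr8) for the 9 members that matched, all but Syngr1. Syn1, Syp, Slc17a7 and Rab3a are printed because their Veh and Veh + CMS libraries did not overlap, and Syn2 because it shares a string with Syn1 and Syp. Capitals mark the strings searched, on both strands: the whole cAMP response element TGACGTCA, its core TGACG, the EGR1 sites GCGTGGGCG and GCGGGGGCG, the Sp1 GC box GGGCGG, the REST site parts TTCAGCACC and GGACAG, and the TATA box TATAAA. Syn1 lies at chrX:3725495-3725744 (plus strand), Syn2 at chr4:149858669-149858918 (plus strand), Syp at chrX:17536450-17536699 (minus strand), Slc17a7 at chr1:104785955-104786204 (plus strand) and Rab3a at chr16:18722274-18722523 (minus strand), all in GRCr8.
Syn1: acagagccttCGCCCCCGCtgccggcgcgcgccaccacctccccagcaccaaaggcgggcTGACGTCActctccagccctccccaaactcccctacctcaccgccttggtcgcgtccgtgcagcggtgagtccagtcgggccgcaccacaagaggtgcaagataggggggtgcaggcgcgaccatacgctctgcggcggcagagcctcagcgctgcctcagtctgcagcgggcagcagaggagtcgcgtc
Syn2: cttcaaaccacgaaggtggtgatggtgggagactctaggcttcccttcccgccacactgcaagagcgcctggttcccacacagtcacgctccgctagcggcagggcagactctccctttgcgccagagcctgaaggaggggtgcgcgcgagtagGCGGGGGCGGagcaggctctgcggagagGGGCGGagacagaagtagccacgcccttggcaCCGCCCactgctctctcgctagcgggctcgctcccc
Syp: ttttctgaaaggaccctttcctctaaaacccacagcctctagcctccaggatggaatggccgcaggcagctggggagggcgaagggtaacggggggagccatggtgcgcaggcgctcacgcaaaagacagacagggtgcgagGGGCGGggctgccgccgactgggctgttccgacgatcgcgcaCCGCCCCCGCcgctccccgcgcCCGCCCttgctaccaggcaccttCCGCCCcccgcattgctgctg
Slc17a7: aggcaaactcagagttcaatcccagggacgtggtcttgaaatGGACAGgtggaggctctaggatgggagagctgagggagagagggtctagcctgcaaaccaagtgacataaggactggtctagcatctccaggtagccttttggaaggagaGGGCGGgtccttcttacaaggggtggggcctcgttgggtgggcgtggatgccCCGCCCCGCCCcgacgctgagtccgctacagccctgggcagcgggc
Rab3a: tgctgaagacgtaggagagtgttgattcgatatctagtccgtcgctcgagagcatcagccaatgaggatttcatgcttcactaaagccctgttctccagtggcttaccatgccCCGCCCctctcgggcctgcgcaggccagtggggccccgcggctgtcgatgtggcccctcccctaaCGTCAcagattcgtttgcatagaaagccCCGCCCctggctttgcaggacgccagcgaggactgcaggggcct
An EGR1 string was found in 3 of the 9 windows, those of Syn1, Syn2 and Syp, compared with 2.85% of the 33465 RefSeq windows of this length. In each of them the letters were GCGGGGGCG. The string began 240 bases before the start of Syn1, 96 before that of Syn2 and 65 before that of Syp, and in Syn2 and Syp it overlapped a GC box. The whole cAMP response element stood in the Syn1 window alone, 190 bases before the start, and in 1.59% of all windows. GC boxes were found in Syn2, Syp, Rab3a and Slc17a7, and in 30.5% of all windows. The core TGACG stood in Syn1, Rab3a and Slc17a6 (18.2% of all windows) and GGACAG in Slc17a7 (18.2%), whereas TTCAGCACC (0.305%) and TATAAA (12.9%) were in none of the 9. The GC content was 69.6% in Syn1, 68% in Syp, 66.8% in Syn2, 61.2% in Slc17a7 and 60.4% in Rab3a, and as low as 50.8% in Slc17a6, compared with a median of 51.2% over all windows. The strings GCGGGGGCG and GGGCGG are made of G and C alone, and the shares over all windows were not matched for GC content. The counts of windows are therefore no measure of enrichment. These matches describe letters only, and binding was not measured.

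The libraries held 13913639 to 16960004 reads on genes, and 19645 to 19952 genes had at least 1 read. Levels are FPKM, fragments divided by gene length and by library size, so that genes of different length can be compared. Reads of the mitochondrial genome made up 6.96% to 13.9% of a library, and the highest share belonged to Veh + CMS replicate 2. That library also had the lowest FPKM of all 9 libraries for all 10 vesicle genes, and values without it are given where they moved by over 1.5 times or lost their call. Within the Veh group, replicate 3 was the lowest for 8 of the genes, and within the PHL + CMS group replicate 1 was the highest for 9 and replicate 2 the lowest for 9. The genes therefore varied together from library to library, and their number does not add to the number of replicates.

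Over the 9 libraries Syp was the most abundant member, with a mean of 689 FPKM, which ranked 51 among 34463 genes. Slc17a7 followed at 532 FPKM (rank 83), Syn1 at 215 (rank 316), Rab3a at 189 (rank 373) and Syn2 at 141 (rank 539). Sv2a stood at 124 FPKM, Syngr1 at 119, Sv2b at 114 and Synpr at 106, and the ranges of these 4 genes over the 9 libraries overlapped. Slc17a6 was far below the others at 3.22 FPKM (rank 11217) and rested on 63 to 428 reads per library, while every other member had at least 1313 reads in each library. Of the 10 members, 5 overlap another gene in Rnor_6.0, the build of the table, and in every case on the other strand. The sources do not say whether strand was used in counting, and Timp1 inside Syn1 (mean 3.86 FPKM), Timp4 inside Syn2 (mean 3.80 FPKM), LOC102555453 inside Syn1 (mean 79.2 FPKM), Rpl3 at the start of Syngr1 (542 shared bases, mean 104 FPKM) and Mpv17l2 at the end of Rab3a (874 shared bases, mean 17.4 FPKM) cannot be fully told apart from them.

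**Figure D1:**
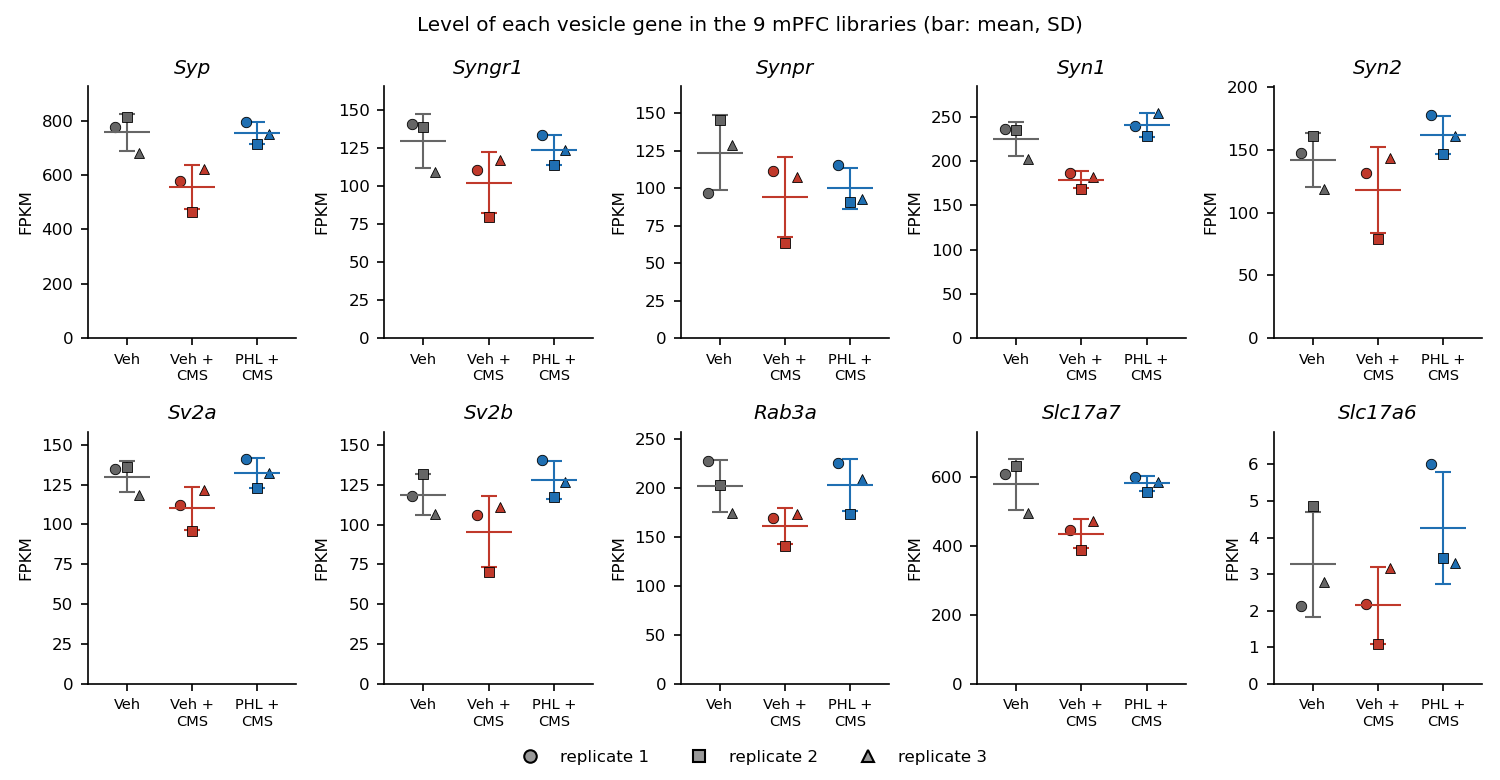
FPKM of each vesicle gene (vertical axis, from 0) in each of the 3 groups, with a symbol per replicate and a bar for the mean and SD of 3 libraries. Veh + CMS replicate 2 (red square) is the lowest of the 9 libraries in all 10 panels, and the Syn1, Syp, Slc17a7 and Rab3a values of the Veh + CMS group lie below those of both other groups.

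To determine how CMS relates to these genes, the Veh + CMS libraries were compared with the Veh libraries. All 10 vesicle genes had a lower mean in the Veh + CMS group. The median log2 fold change was -0.35, compared with -0.02 over the 16159 genes tested. Changes are on the log2(FPKM + 0.1) scale, which understates those of low genes such as Slc17a6. None of the 10 passed an adjusted p of 0.05 with limma, where 1.14% of all tested genes passed as lower and 2.65% as higher. At an unadjusted p under 0.05, 6 members were lower, compared with 11.3% of all genes as lower and 10.9% as higher. For 4 members (Syn1, Syp, Slc17a7 and Rab3a) every Veh + CMS library lay below every Veh library, which held for 13.5% of all genes. The limma-voom test on recovered reads passed 0 members after adjustment and 5 at an unadjusted p under 0.05.

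Among the membrane proteins, Syp, the classical marker of vesicles (ENSRNOG00000059720, chrX:15695566-15707436), had 778, 813 and 682 FPKM in the Veh libraries and 578, 465 and 621 FPKM in the Veh + CMS libraries. The highest Veh + CMS library lay below the lowest Veh library. The log2 fold change was -0.46 (SE 0.12), and the adjusted p from limma was 0.0687. Syngr1 (ENSRNOG00000017108, chr7:121311024-121334437) had 141, 139 and 109 FPKM in the Veh libraries and 111, 79.4 and 117 FPKM in the Veh + CMS libraries. Its groups overlapped, since Veh replicate 3 lay below 2 of the stressed libraries, and its log2 fold change was -0.35 (SE 0.16, with an adjusted p of 0.225 in limma), or -0.18 without Veh + CMS replicate 2. Synpr, a relative of Syp found at a subset of synapses (ENSRNOG00000008203, chr15:14559471-14737704), had 96.5, 146 and 129 FPKM in the Veh libraries and 111, 63.4 and 107 FPKM in the Veh + CMS libraries. Veh replicate 1 was lower than 2 of the stressed libraries, and the log2 fold change of -0.42 had an SE of 0.23 (with an adjusted p of 0.321 in limma). It was -0.16 without Veh + CMS replicate 2.

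Sv2a, the binding site of the antiepileptic levetiracetam (ENSRNOG00000021182, chr2:198321142-198336913), had 135, 136 and 119 FPKM in the Veh libraries and 112, 95.6 and 122 FPKM in the Veh + CMS libraries. A single stressed library, replicate 3, lay above a Veh library, and the log2 fold change was -0.24 (SE 0.10, with an adjusted p of 0.21 in limma), or -0.15 without Veh + CMS replicate 2. Sv2b (chr1:136664204-136842247) had 118, 132 and 107 FPKM in the Veh libraries and 106, 70.0 and 111 FPKM in the Veh + CMS libraries. The groups overlapped, and the log2 fold change was -0.34 (SE 0.17, with an adjusted p of 0.282 in limma). Without Veh + CMS replicate 2, the lowest library, it was -0.13.

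The synapsins differed in spread. Syn1 (ENSRNOG00000010365, chrX:1321315-1379198) had 237, 235 and 203 FPKM in the Veh libraries and 187, 169 and 182 FPKM in the Veh + CMS libraries, with no overlap. Its log2 fold change of -0.33 had the smallest SE of the members (0.08), and its adjusted p of 0.0664 was their lowest in limma. Syn2 (ENSRNOG00000008157, chr4:147037179-147195096) had 147, 161 and 119 FPKM in the Veh libraries and 131, 79.0 and 144 FPKM in the Veh + CMS libraries. Replicate 2 of the stressed group stood apart from the others, and the log2 fold change was -0.31 (SE 0.21, with an adjusted p of 0.441 in limma), or -0.04 without it. Rab3a, the GTPase that cycles on and off the vesicle with release (ENSRNOG00000019433, chr16:20435101-20439206), had 228, 204 and 175 FPKM in the Veh libraries and 170, 140 and 174 FPKM in the Veh + CMS libraries. The groups were separated by a small margin (173.6 below 174.6 FPKM), and the log2 fold change was -0.32 (SE 0.13, with an adjusted p of 0.201 in limma). It was -0.23 without Veh + CMS replicate 2, with an unadjusted p of 0.137 in limma.

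Of the glutamate loaders, Slc17a7 (ENSRNOG00000020650, chr1:101161252-101173174) had 608, 631 and 495 FPKM in the Veh libraries and 447, 389 and 472 FPKM in the Veh + CMS libraries, with no overlap. Its log2 fold change was -0.40 (SE 0.11), and the adjusted p from limma was 0.0768. Slc17a6 (ENSRNOG00000016147, chr1:106998623-107038704) had 2.14, 4.87 and 2.78 FPKM in the Veh libraries and 2.19, 1.08 and 3.17 FPKM in the Veh + CMS libraries. The groups overlapped, and the log2 fold change of -0.62 (95% interval -1.58 to 0.34, with an adjusted p of 0.436 in limma) was the least precise of the 10. It was -0.21 without Veh + CMS replicate 2. Exact two-sided permutation tests of single genes cannot go below 0.1 with 3 libraries against 3, and this value was reached by Syn1, Syp, Slc17a7 and Rab3a.

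The count of members at an unadjusted p under 0.05 depended on single libraries. It was 3 without Veh + CMS replicate 2, and the same number without Veh replicate 2 or PHL + CMS replicate 3. Syn1, Syp and Slc17a7 made up the count in these cases, and the same genes stayed under this threshold in all 21 alternative settings. Without Veh + CMS replicate 2 the median log2 fold change of the members was -0.20, Syp stood at -0.34, Slc17a7 at -0.32 and Syn1 at -0.28, and 10.7% of all genes were lower at an unadjusted p under 0.05. Without Veh replicate 3, Slc17a7 (log2 fold change -0.51) and Syn1 (-0.40) passed the adjusted p with limma, where 161 of the 16159 genes passed as lower and 332 as higher.

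To determine whether the levels differed with PHL under stress, the PHL + CMS libraries were compared with the Veh + CMS libraries. This comparison shares the Veh + CMS libraries with the previous one, so a low value in them enters both with opposite sign. All 10 vesicle genes had a higher mean in the PHL + CMS group, with a median log2 fold change of 0.42, compared with 0.01 over all genes tested. Neither a member nor any other gene passed an adjusted p of 0.05 in limma (0% of all genes), and limma-voom passed none of the members. At an unadjusted p under 0.05, 8 members were higher, compared with 7.51% of all genes as higher and 8.22% as lower, and voom likewise counted 8. The same number of members, all but Syngr1 and Synpr, did not overlap between the groups, compared with 10.5% of all genes.

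In the PHL + CMS libraries Syp had 797, 714 and 752 FPKM, each above the highest Veh + CMS library (621 FPKM). The log2 fold change was 0.45 (SE 0.12, with an adjusted p of 0.167 in limma). Syn1 had 239, 228 and 255 FPKM, also above all stressed libraries, with a log2 fold change of 0.43 (SE 0.08). Its adjusted p of 0.149 in limma was the lowest among the members. Slc17a7 had 600, 558 and 586 FPKM, the narrowest spread of any member within a group (coefficient of variation 3.69%), and a log2 fold change of 0.42 (SE 0.11, with an adjusted p of 0.167 in limma). These 3 genes lay about 1.34 to 1.37 times above the Veh + CMS group.

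Syn2 had 178, 147 and 161 FPKM with PHL, and its lowest value was close to the highest stressed library (144 FPKM). The log2 fold change was 0.50 (SE 0.21, with an adjusted p of 0.299 in limma). Sv2b had 140, 117 and 126 FPKM, with a log2 fold change of 0.45 (SE 0.17, with an adjusted p of 0.258 in limma), and Sv2a had 141, 123 and 132 FPKM, with a log2 fold change of 0.27 (SE 0.10, with an adjusted p of 0.268 in limma). Both SV2 genes were separated from the stressed libraries, Sv2a by less than 1 FPKM (121.8 below 122.5 FPKM). Rab3a had 226, 174 and 210 FPKM, and its groups were barely separated (173.557 below 173.579 FPKM), with a log2 fold change of 0.33 (SE 0.13, with an adjusted p of 0.289 in limma). Slc17a6 had 6.02, 3.43 and 3.30 FPKM, with a log2 fold change of 1.02 (95% interval 0.06 to 1.98, with an adjusted p of 0.293 in limma). Replicate 1 of the PHL + CMS group was the highest of all 9 libraries for Slc17a6 and the other 2 stood just above the highest stressed library (3.17 FPKM).

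Syngr1 and Synpr were the members whose groups overlapped. Syngr1 had 134, 114 and 124 FPKM in the PHL + CMS libraries, with a log2 fold change of 0.29 (SE 0.16, with an adjusted p of 0.405 in limma). Synpr had 116, 91.1 and 93.2 FPKM, of which 2 values lay below 2 of the stressed libraries, and its log2 fold change was 0.13 (95% interval -0.39 to 0.64, with an adjusted p of 0.831 in limma). Without Veh + CMS replicate 2 the Synpr value turned to -0.14. Leaving out that library or PHL + CMS replicate 1 cut the count at an unadjusted p under 0.05 from 8 to 3 (Syn1, Syp and Slc17a7), and leaving out PHL + CMS replicate 3 cut it to 4, with Slc17a6 added. Without Veh + CMS replicate 2 the log2 fold changes were 0.23 for Syn2, 0.24 for Sv2b, 0.17 for Sv2a, 0.23 for Rab3a, 0.61 for Slc17a6 and 0.12 for Syngr1, against 0.38 for Syn1, 0.33 for Syp and 0.34 for Slc17a7. In that case the median over the members was 0.24, and 6.54% of all genes were higher at that threshold.

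**Figure D2:**
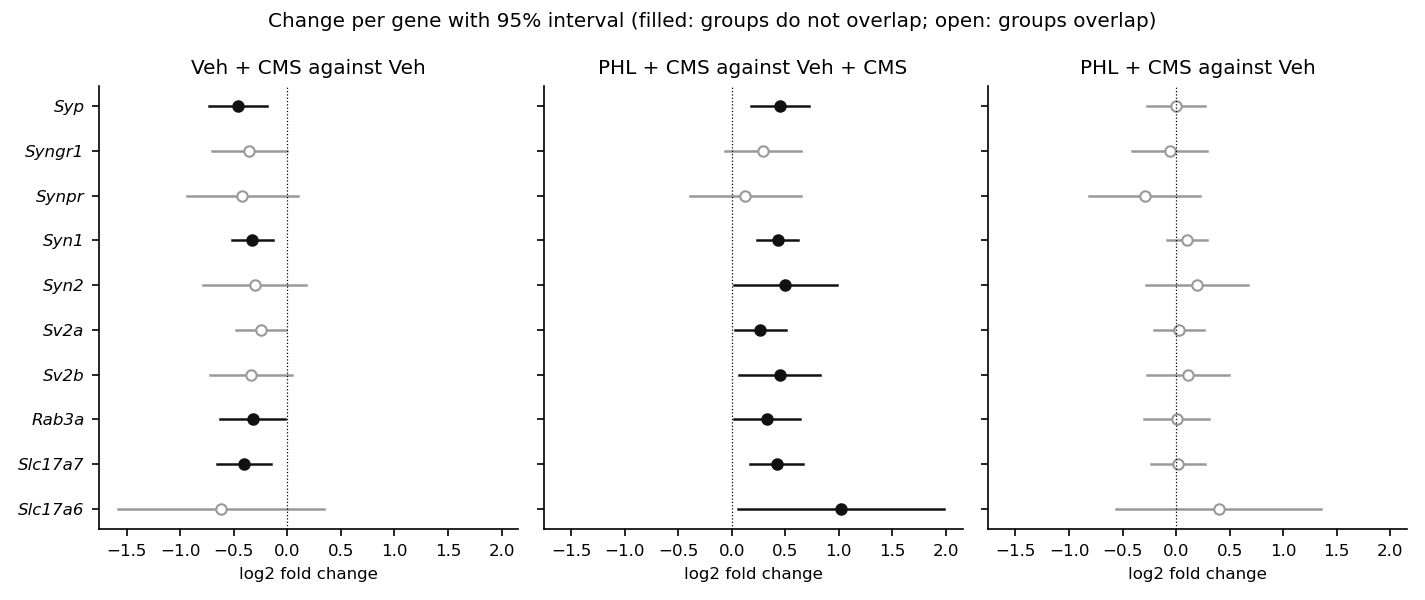
Log2 fold change of each vesicle gene (horizontal axis) in the 3 comparisons, as a point with its 95% interval from limma; filled points mark groups of libraries that do not overlap. All 10 points lie left of 0 for Veh + CMS against Veh, all 10 right of 0 for PHL + CMS against Veh + CMS, and the intervals all span 0 for PHL + CMS against Veh.

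The PHL + CMS libraries were also compared with those of the Veh group. No member passed an adjusted p of 0.05 in limma, nor did any other gene (0% of all genes), and voom passed none of the members. None of the 10 had an unadjusted p under 0.05 in limma, compared with 10.8% of all genes in either direction, and the groups of every member overlapped. The median log2 fold change was 0.02, with 7 members above 0 and 3 below. The interval of the difference was narrow for Syn1, at 0.10 (95% interval -0.09 to 0.29). It ran from -0.28 to 0.27 for Syp, from -0.24 to 0.27 for Slc17a7, from -0.21 to 0.26 for Sv2a and from -0.30 to 0.31 for Rab3a, so that differences inside these ranges could not be resolved with 3 libraries a group. Synpr had the lowest value, -0.29 (95% interval -0.81 to 0.22), and Slc17a6 the highest, 0.40 (95% interval -0.56 to 1.36).

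Ratios of related members within a library do not depend on the scaling between libraries, and 4 of them were compared in the 3 comparisons, 12 tests in all. No ratio passed a two-sided exact permutation test after Benjamini-Hochberg adjustment, and the lowest adjusted p was 0.72. The log2 ratio of Sv2a to Sv2b was 0.09, 0.45 and 0.14 in the Veh + CMS libraries and 0.01, 0.06 and 0.06 in the PHL + CMS libraries. These groups did not overlap (difference -0.18, exact p = 0.1, the smallest that 3 against 3 allows), and without Veh + CMS replicate 2 the difference was -0.07. The log2 ratio of Slc17a6 to Slc17a7 averaged -7.50 in the Veh group, -7.72 in the Veh + CMS group and -7.12 in the PHL + CMS group, with SDs of 0.55, 0.61 and 0.44 (n = 3), and each pair of groups overlapped. The log2 ratio of Synpr to Syp averaged -2.63, -2.59 and -2.92 in the same order, and that of Syn1 to Syn2 averaged 0.67, 0.65 and 0.57. The groups overlapped in every comparison of both ratios.

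Paralogs of the members show how far the values held for the families, and 18 of the 23 listed passed the filter on low values. In Veh + CMS compared with Veh, their median log2 fold change was -0.17 (-0.07 without Veh + CMS replicate 2), and Syngr2 and Sypl1 passed the test as higher while none passed as lower. Syngr2, a synaptogyrin found mostly outside neurons, had 12.5, 11.0 and 13.6 FPKM in the Veh libraries and 21.0, 26.8 and 26.8 FPKM in the Veh + CMS libraries, and it rose by a log2 fold change of 1.00 (SE 0.19, with an adjusted p of 0.0345 in limma). Sypl1, a broadly expressed relative of synaptophysin, rose from a mean of 40.2 ± 2.42 FPKM to 54.0 ± 3.20 FPKM (SD, n = 3), a log2 fold change of 0.42 (SE 0.08, with an adjusted p of 0.0345 in limma). Both lost their call when Veh replicate 1 or 2 or any Veh + CMS library was left out, as every call of the vesicle lists did, with adjusted p-values of 0.0517 to 0.173 in limma, and kept an unadjusted p under 0.05. The neuronal Syngr1 and Syp and their relatives Syngr2 and Sypl1 stood on opposite sides of 0 in the same libraries. Most paralogs lay on the side of the members, with 12 of the 18 below 0 and 6 above (52.5% of all genes below). Svop had a log2 fold change of -0.40 (SE 0.11, with an adjusted p of 0.0744 in limma). Syngr3 had 165, 163 and 153 FPKM in the Veh libraries and 135, 98.6 and 135 FPKM in the Veh + CMS libraries. Rab3b had 43.8, 52.9 and 46.9 FPKM and then 42.3, 33.9 and 41.2 FPKM. In PHL + CMS compared with Veh + CMS, Sypl1 had a log2 fold change of -0.34 (SE 0.08, with an adjusted p of 0.158 in limma), and Svop, an SV2-related vesicle protein, had 0.42 (SE 0.11, with an adjusted p of 0.166 in limma). In the remaining comparison, PHL + CMS with Veh, Syngr2 stood at 0.53 (with an adjusted p of 0.393 in limma) and Slc32a1, the vesicular transporter of inhibitory transmitters, at -0.27 (with an adjusted p of 0.451 in limma). By level, Syngr3 had a mean of 146 FPKM over the 9 libraries, more than Syngr1, whereas Syn3 had 4.89 FPKM, Sv2c 1.95 FPKM and Slc17a8 (VGLUT3) 0.43 FPKM.

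Other genes of the vesicle cycle were taken from lists of fusion proteins, active zone proteins, recycling proteins and proton pump subunits, which with the paralogs made 110 genes, of which 104 were tested. In Veh + CMS compared with Veh, 79 were below 0 and 25 above, with a median log2 fold change of -0.17, and at an unadjusted p under 0.05 26.9% were lower and 9.62% higher, compared with 11.3% and 10.9% of all genes. After adjustment 7 passed as lower and 5 as higher, where 1.14% and 2.65% of all genes did. The median was -0.12 without Veh + CMS replicate 2, with 21.2% lower at the unadjusted threshold. The proton pump that energizes glutamate loading was the most uniform list: all 16 subunits were below 0, with a median of -0.30, and 4 of them fell past the adjusted p (Atp6v0b, Atp6v0c, Atp6v1e1 and Atp6v1f). Over all genes, 52.5% were below 0 and 1.14% passed as lower. Atp6v0b stood at -0.37 (SE 0.07, with an adjusted p of 0.0317 in limma) and Atp6v1f at -0.30 (SE 0.06, with an adjusted p of 0.0345 in limma). Of 22 fusion genes, 20 were below 0, and Syt5, a synaptotagmin, at -0.58 (SE 0.10, with an adjusted p of 0.0276 in limma) and Stx1a, a presynaptic membrane SNARE, at -0.51 (SE 0.12, with an adjusted p of 0.0498 in limma) fell. Active zone genes had a median of -0.05 with 0 of 19 at an unadjusted p under 0.05 in limma, the lowest p being those of the scaffold gene Ppfia2 (log2 fold change -0.29) and Madd (-0.17), an exchange factor of Rab3. Recycling genes went both ways, with a median of -0.13 (-0.02 without Veh + CMS replicate 2). Cltb, a clathrin light chain, fell by 0.41 on the log2 scale (SE 0.06, with an adjusted p of 0.0263 in limma), whereas Eps15, an endocytic adaptor, rose by 0.47 (SE 0.06, with an adjusted p of 0.0263 in limma), as did Sh3gl3 (log2 fold change 0.62) and Dnm2 (0.63), which act in membrane bending and scission. With Veh replicate 1 or 2 or any Veh + CMS library left out, 0 of these 12 genes passed the adjusted p in limma, and all 12 kept their direction and an unadjusted p under 0.05. With all libraries kept, 0 passed in limma without the variance trend or with replicate number as a block. The count was 7 with no filter, with quantile normalization or with a fit of only the 2 groups compared.

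In PHL + CMS compared with Veh + CMS, 80 of these 104 genes were above 0, with a median log2 fold change of 0.19, and at an unadjusted p under 0.05 28.8% were higher and 8.65% lower, compared with 7.51% and 8.22% of all genes. None passed adjustment in limma. Without Veh + CMS replicate 2 the median was 0.15, and that of the proton pump was 0.13 in place of 0.19. The values were 0.27 for Vamp2, the vesicle SNARE (SE 0.07), and 0.44 for Stx1a (SE 0.12), 0.32 for the scaffold gene Bsn and 0.29 for Madd at the active zone, 0.31 for Cltb and -0.28 for Eps15 in recycling, and 0.30 for Atp6v0c and 0.32 for Atp6v0a1 in the proton pump. Adjusted p-values from limma were 0.149 to 0.189 for these 8 genes. In PHL + CMS compared with Veh the median was 0.03, and none passed adjustment in limma. There the proton pump stayed below 0 in 14 of 16 subunits, with Atp6v1f at -0.31 (SE 0.06, with an adjusted p of 0.235 in limma) and Atp6v1g1 at -0.29 (SE 0.07, with an adjusted p of 0.246 in limma). Active zone genes lay above 0 in 15 of 19, with Bsn at 0.37 (SE 0.10, with an adjusted p of 0.276 in limma) and Pclo at 0.41 (SE 0.12, with an adjusted p of 0.337 in limma). In the same comparison the SNARE-binding Snapin stood at -0.23, the complexin Cplx3 at 0.54, Eps15 at 0.19 and Ap2s1, a subunit of the clathrin adaptor, at -0.19.

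**Figure D3:**
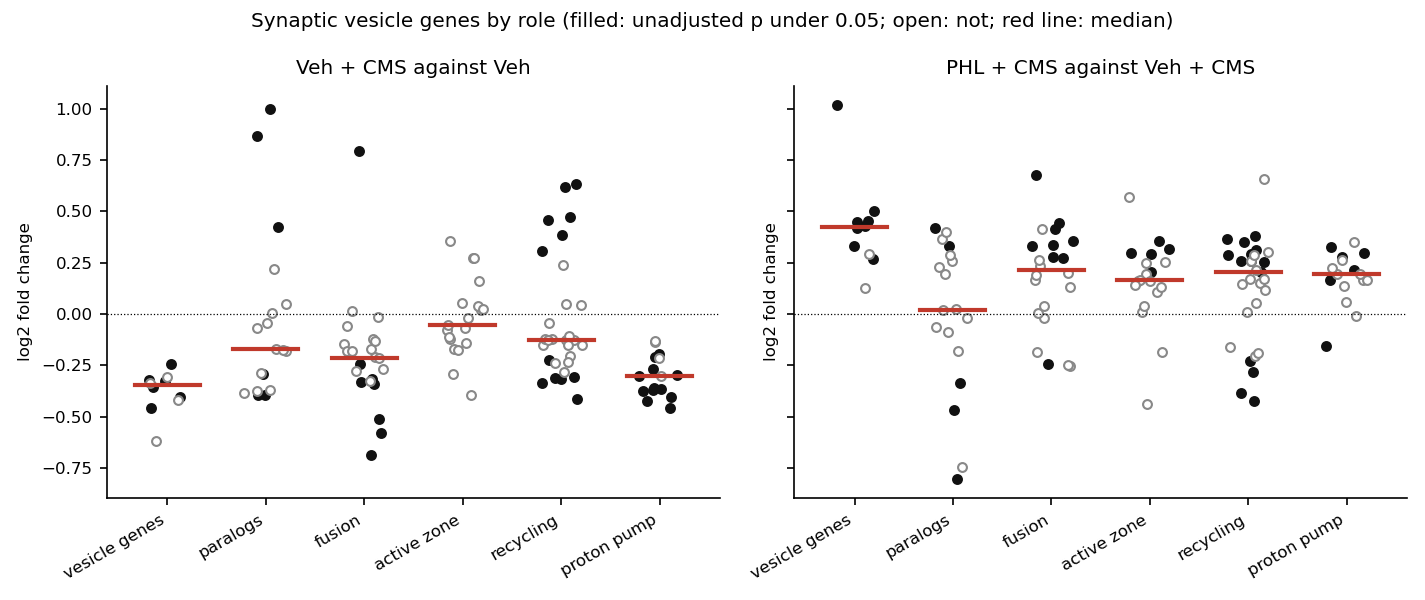
Log2 fold change (vertical axis) of the tested synaptic vesicle genes by role, for Veh + CMS against Veh (left) and PHL + CMS against Veh + CMS (right), with a point per gene and a red line at the median; filled points had an unadjusted p under 0.05. The 10 vesicle genes and the 16 proton pump subunits lie below 0 in the left panel, and paralogs, fusion, active zone and recycling genes lie on both sides.

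Markers of the cells in the tissue moved with these comparisons. Of the 23 oligodendrocyte markers, 22 rose in Veh + CMS compared with Veh past the adjusted p in limma. Without Veh replicate 1 or 2 or any Veh + CMS library none of them passed it in limma, though all 23 kept an unadjusted p under 0.05. The same held with all libraries kept when the variance trend was left out or replicate number was a block. Their summed level was 2886 to 3600 FPKM in the Veh libraries, 9796 to 13115 FPKM in the Veh + CMS libraries and 3857 to 8407 FPKM in the PHL + CMS libraries. On the log2 scale relative to the Veh mean, the list mean was 0.03, -0.19 and 0.16 in the Veh libraries. There replicate 3 was the lowest for 8 vesicle genes and replicate 2 the highest for 7. It was 1.39, 1.78 and 1.63 in the Veh + CMS libraries, with replicate 2 the lowest for 10 and replicate 3 the highest for 8. In the PHL + CMS libraries it was 0.32, 1.22 and 0.08, with replicate 2 the lowest for 9 and replicate 1 the highest for 9. Striatal markers summed to 261 to 681 FPKM, 397 to 926 FPKM and 275 to 290 FPKM in the same order. None of the 17 tested passed in limma (6 at an unadjusted p under 0.05, higher in Veh + CMS). On the same log2 scale the striatal mean was -0.707, -0.489 and 1.195 in the Veh libraries. Replicate 3, the lowest there for 8 vesicle genes, was thus the highest for this list. It was 1.596, 0.938 and 0.287 in the Veh + CMS libraries, where replicate 2, the lowest for all vesicle genes, lay between the others. In the PHL + CMS libraries it was -0.433, -0.278 and -0.542. Microglial markers summed to 253 to 298 FPKM, 287 to 358 FPKM and 236 to 266 FPKM in the same order, with Siglech at 0 in all 9 libraries. Veh + CMS replicate 2 was the highest of the 9 libraries for the microglial (0.63), astrocyte (0.56) and endothelial (0.53) log2 means. Inhibitory neuron markers had a median log2 fold change of -0.29 in Veh + CMS compared with Veh, with 12 of 15 below 0 (52.5% of all genes). Of these, 3 passed the adjusted p in limma as lower (1.14% of all genes), and 0 genes passed as lower without Veh + CMS replicate 2. Their log2 mean was -0.12, -0.28 and -0.33 in the Veh + CMS libraries. In PHL + CMS compared with Veh + CMS, all 23 oligodendrocyte markers were lower at an unadjusted p under 0.05 in limma. So were 10 of 17 striatal, 8 of 14 microglial and 2 of 15 astrocyte markers (8.22% of all genes). Of the 15 inhibitory markers 3 were higher (7.51% of all genes) and 0 lower. None of these markers passed adjustment in that comparison. The part of all these markers in the levels of the vesicle genes was not tested.

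Markers of excitatory cortical neurons were present in every library, with sums of 2042 to 2753 FPKM in the Veh group, 1567 to 2499 FPKM in the Veh + CMS group and 2061 to 2352 FPKM in the PHL + CMS group. Their mean on the log2 scale, relative to the Veh mean, ran from -0.26 to -0.10 in the Veh + CMS libraries, where the mean of the vesicle genes ran from -0.73 to -0.15. In the PHL + CMS libraries these ranges were 0.04 to 0.20 and -0.08 to 0.20. Markers of neurons of all kinds, none of them a vesicle gene, ran from -0.39 to -0.09 in the Veh + CMS libraries, and replicate 2, the lowest library for every vesicle gene, was the highest of the 3 for this list. In Veh + CMS compared with Veh, 12 of its 15 genes and 12 of 15 excitatory ones were below 0 (52.5% of all genes). Their medians were -0.28 and -0.20. At an unadjusted p under 0.05 in limma 6 and 0 were lower (11.3%) and 1 of each higher. After adjustment 1 and 0 passed as lower (1.14%). In PHL + CMS compared with Veh + CMS, 11 and 14 were above 0 (51.1%), with medians of 0.18 and 0.27. Of each list, 5 were higher at the unadjusted threshold (7.51%). Within the list of neurons of all kinds, genes were split in replicate 2. In the Veh + CMS libraries Nefh had 13.4, 43.1 and 11.4 FPKM, Nefm 37.6, 82.7 and 33.2 and Eno2 5.92, 16.2 and 5.57. Rbfox3, Map2, Nefl and Thy1 were also highest in replicate 2. Gap43 (312, 199 and 300 FPKM), Tubb3, Uchl1, Stmn2, Elavl3, Elavl4 and Ina were lowest in it, and Mapt lay between. The mean of the excitatory markers was also lowest in replicate 2, at -0.26, but the excitatory list was split too. Camk2a (505, 773 and 502 FPKM), Nrgn (813, 1469 and 750 FPKM), Emx1, Rorb and Cux1 were highest in it, and so was the summed level. The other genes of the excitatory list were lowest in it, among them Tbr1 (39.5, 28.9 and 38.8 FPKM). Relative to the mean of the list of neurons of all kinds, the mean of the vesicle genes was 0.09, -0.64 and 0.23 in the 3 Veh + CMS libraries, so that replicate 2 alone stood below the Veh mean. That list mean itself ran from -0.21 to 0.24 among the Veh libraries. Eno2 had 36.0, 15.9 and 8.26 FPKM there, and Nefh had 32.5, 16.2 and 17.6 FPKM. Values relative to the list therefore depend on its variable genes and do not speak for neurons in general. Relative to the list, the median vesicle gene stood at -0.07 in Veh + CMS compared with Veh, with 9 members below 0 and none apart between groups, but at 0.17 without replicate 2, with all 10 above 0 and 3 apart as higher. It stood at 0.28 in PHL + CMS compared with Veh + CMS, with 9 members above 0 and 1 apart, and at -0.0024 (4 above 0, 6 below, 1 apart as higher and 1 as lower) without that library. For PHL + CMS compared with Veh it stood at 0.14, with 9 members above 0 and 1 apart. No share over all genes after the same subtraction is given, so these counts of members have no background to be read against. Leaving out the library in these values was decided after seeing the data. Of a list of genes of the thalamus and other regions rich in Slc17a6 neurons, 11 were tested. Their mean was 0.10 to 0.22 in the Veh + CMS libraries and 0.06 to 0.22 in the PHL + CMS libraries. These ranges overlapped while those of Slc17a6 did not. The list was split, with 6 genes above 0 and 5 below in Veh + CMS compared with Veh. There the mean FPKM rose from 0.48 to 1.63 for Slitrk6 and from 1.31 to 2.49 for Tcf7l2. It fell from 10.2 to 7.09 for Zic1 and from 4.77 to 3.45 for Prkcd. Gbx2, Lhx9, Pou4f1 and Barhl1 were left out by the filter on low values. The mean of the list therefore does not speak for these regions. Whether composition contributed to the Slc17a6 values was not tested.

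**Figure D4:**
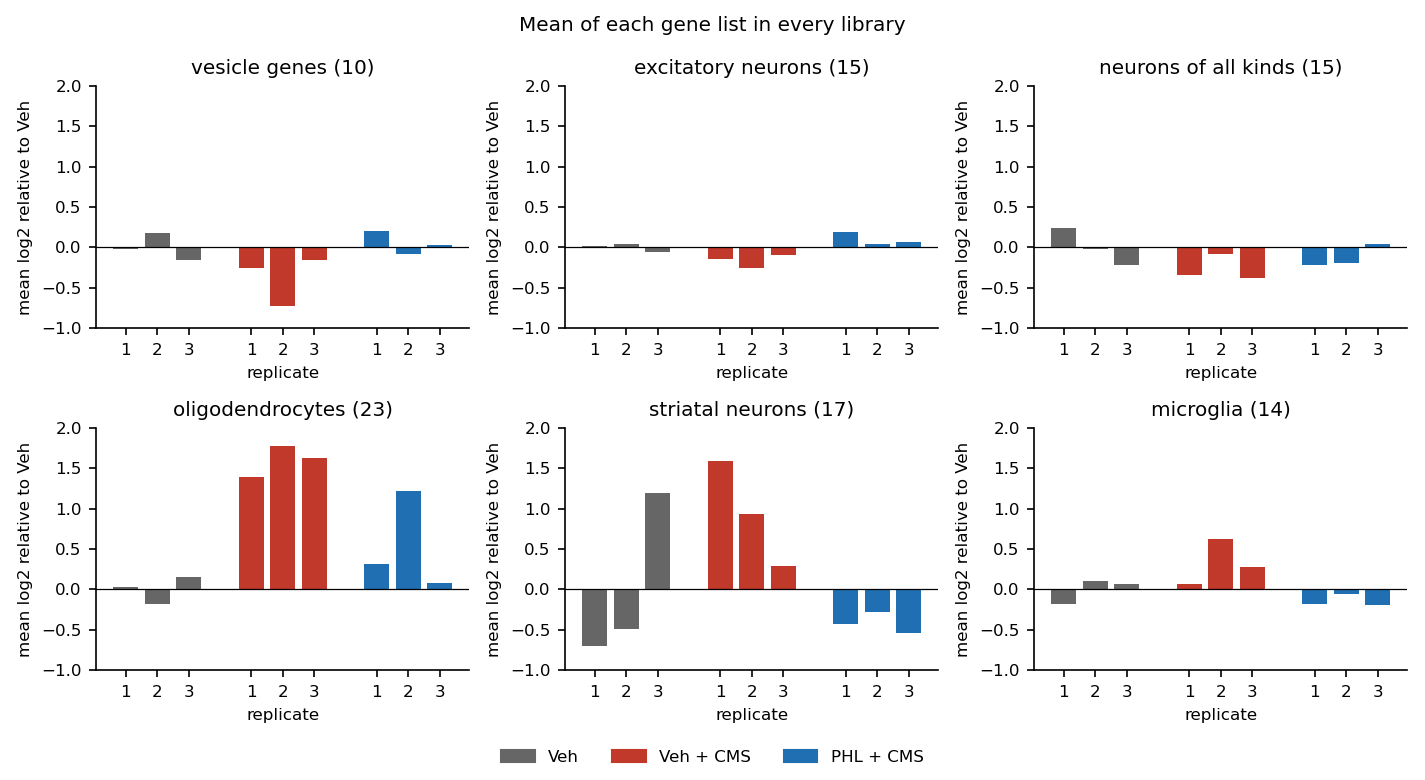
Mean log2(FPKM + 0.1) of the vesicle genes and of 5 marker lists in each library, relative to the mean of the Veh group (vertical axis), with the number of genes tested in brackets and a bar per replicate. Oligodendrocyte markers stand at 1.39 to 1.78 in the Veh + CMS libraries and at 1.22 in PHL + CMS replicate 2, and the vesicle genes are lowest in Veh + CMS replicate 2, at -0.73.

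The genes with the most similar profiles were found among 12673 named protein-coding genes, as those with the smallest root-mean-square difference in log2 level over the 9 libraries after each gene was centred on its own mean. Syp and Slc17a7 had the same nearest genes, Tmem132a (differences 0.03 and 0.06) and Pld3 (0.04 and 0.06). Syn1 was nearest to Syt13 (0.05). Rab3a was nearest to Syt1 (0.05), the calcium sensor of fast release, and Magi1 (0.05). Sv2a was nearest to Trim27 and Dync1li1 (0.03 each), Syngr1 to Hebp1 (0.05) and Pnma8a (0.06), and Sv2b to Sema3c (0.06) and Flrt2 (0.07). Syn2 was nearest to Ldb2 and Crim1 (0.08 each) and Synpr to B3galnt1 and Cited2 (0.14 each). No gene came close to Slc17a6, for which Baiap3 (0.21) and Hs3st6 (0.22) were nearest. For scale, the SD of the members' own centred profiles was 0.17 for Sv2a, the lowest, and 0.69 for Slc17a6, the highest. The profiles share libraries and depth, and no test was made of this likeness.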

How the data were processed

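The authors deposited FPKM for 34463 genes in 9 libraries. The submitters' processing notes name HISAT2 and Rnor_6.0. For the counting tool, annotation release, filters and versions: not given in the sources used here. FPKM times gene length gave whole multiples of 1 step per library (within 1e-06), taken as reads. The deposited scaling lay within 0.265% of the median of ratios and was kept. The 16159 genes whose mean FPKM reached 0.5 (18304 were left out) were tested with limma 3.58.1 in R 4.3.3 on log2(FPKM + 0.1), with a variance trend, all 3 groups in the same fit and Benjamini-Hochberg adjustment over all genes tested. Tests were two-sided. Intervals are 95% intervals of that fit. Exact permutation tests used scipy 1.17.1. The fit was tested on simulated data. The members and gene lists were chosen with earlier results of these data known. Named genes were all 10 members, the 2 of each vesicle list with the smallest p per comparison, and the 2 nearest profiles per member, of which 1 is not reported here. Atp6v0c, Atp6v1e1, Sh3gl3, Dnm2, the single markers and the paralogs outside this rule were named after their values were seen. Alternatives covered the pseudocount, the filter, scaling, moderation, library weights, a replicate block, voom and leaving out each library.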

Additional observations from a re-analysis of the deposited data

How the results depend on the processing

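With quantile normalization 3 vesicle genes were lower in Veh + CMS than in Veh at an unadjusted p under 0.05, 3 with moderation without trend, and with library weights 3 passed the adjusted p in limma (Syp, Slc17a7 and Syn1). In PHL + CMS compared with Veh + CMS the unadjusted count was 4 without trend, and in PHL + CMS compared with Veh it was 1 (Syn1) with quantile normalization. Leaving out each library gave 0 to 2 adjusted calls and 3 to 7 unadjusted ones in the first comparison, and 3 to 9 unadjusted in PHL + CMS compared with Veh + CMS. Synpr in that comparison was -0.028 with library weights and -0.14 to 0.27 over the left-out libraries. In PHL + CMS compared with Veh, Syp was 0.18 with quantile normalization, 0.014 with scaling by library total and 0.014 with voom, and Slc17a7 was -0.022 with library weights. Over the left-out libraries, Syp there ran from -0.078 to 0.048, Syngr1 from -0.18 to 0.0012, Sv2a from -0.040 to 0.077, Rab3a from -0.094 to 0.12 and Slc17a7 from -0.093 to 0.082. Log2 ratios in Veh + CMS compared with Veh ran from -0.51 to 0.11 for Slc17a6 to Slc17a7, from -0.020 to 0.16 for Sv2a to Sv2b, from -0.24 to 0.13 for Syn1 to Syn2 and from -0.15 to 0.18 for Synpr to Syp, and Syn1 to Syn2 ran from -0.23 to 0.15 in PHL + CMS compared with Veh + CMS. The cause was not tested. The members' log2 fold changes kept their direction and side of the threshold in 205 of 210 values for Veh + CMS compared with Veh (the other 5 passed), in 208 of 210 for PHL + CMS compared with Veh + CMS and in 195 of 210 for PHL + CMS compared with Veh. The genes called in Veh + CMS compared with Veh, 428 higher and 185 lower, became 229 and 72 with no filter, 1 and 1 without trend, 740 and 575 with library weights, and 0 with the replicate block. They were 0 or 1 in each direction without Veh replicate 1 or 2 or any Veh + CMS library. The replicate numbers did not pair the libraries: same-numbered libraries correlated by -0.10 to 0.05 in their deviations from the group means, and 1 library matched best with its own number. With the replicate block 0 members passed in each comparison, and 4, 6 and 0 had an unadjusted p under 0.05. edgeR on the recovered reads was not run. Slc17a6 rested on 63 to 428 reads per library, the fewest of the members.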
